A study of Mus musculus with 9 samples.

Results

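The 10 genes described here encode chemokines that have been linked to skin: Ccl2, Ccl7, Ccl11, Ccl19, Ccl27a, Cxcl1, Cxcl12, Cxcl14, Cxcl16 and Cx3cl1. They were taken by gene symbol from a count table of 49671 genes, and all 10 were found. A filter on low counts kept 18435 genes for testing, among them 9 of the 10, and Ccl19 was the one removed. The rule names genes and uses no measured value, but the set was proposed with earlier results of these data in view.

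Chemokines are small secreted proteins that draw leukocytes along a concentration gradient by binding receptors coupled to G proteins. Inflammatory chemokines are made when cells meet cytokines or injury, whereas homeostatic ones are made steadily and guide the normal traffic of cells through a tissue. In skin, keratinocytes, fibroblasts and endothelial cells all make them, and atypical receptors on stromal cells bind chemokines without the usual G-protein signal.

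RNA was sequenced from mouse skin cells sorted as CD45-negative, which removes most leukocytes, and CD49f-positive, CD49f being the integrin alpha-6 chain of basal keratinocytes. The labels call these cells epidermal and divide the 9 libraries by Flg genotype, with 5 wt/wt and 4 ko/ko. Flg encodes filaggrin, a protein of the cornified layer. The labels give no treatment, age or strain, nor how the ko allele was made.

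The libraries held 15601859 to 23200440 counts each. Levels are given as CPM, a gene's count scaled to a common library size, and 1 count was worth 0.0453 to 0.0578 CPM. Flg had 0 to 6 counts in wt/wt and 0 to 4 in ko/ko libraries, which is too few to check the labels. Markers of other cell types were plentiful. The fibroblast proteoglycan Dcn lay at 10868 to 21870.0 CPM and the basal keratin Krt14 at 858 to 1834 CPM over the 9 libraries. Dcn thus lay above Krt14 in every library, and the sorted cells were not purely epidermal by their transcripts. The summed level of 8 basal keratinocyte markers was 1475 to 3106 CPM over the 9 libraries, below that of 8 fibroblast markers in every library. The summed level of 8 fibroblast markers was 15194 and 14024 CPM in wt/wt replicates 1 and 2 and 28103 to 33253 CPM in wt/wt replicates 3 to 5. In ko/ko it was 17989 to 34022 CPM. Wt/wt replicates 1 and 2 stand apart from the other wt/wt libraries in this sum. They were picked for a check after seeing the data, for low Cxcl12 and high Ccl21a levels. The check is thus not independent of those genes, nor of others for which these libraries were extreme. Fold changes below that move by over 1.5 times without these libraries are also given without them, as are those of the members they move most. With both left out, edgeR called 1635 of 18665 genes, against 1 of 18435 with all libraries. A call in that setting is therefore common among all genes.

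Per kb of exon, Cxcl1 was the most abundant of the 10 transcripts and Ccl19 was not detected. Mean levels over the 9 libraries were 630 ± 123 CPM per kb for Cxcl1 (SD, n = 9), 177 ± 136 for Ccl7, 92.3 ± 47.8 for Ccl2 and 42.5 ± 24.3 for Ccl11. Cx3cl1 followed with 37.1 ± 7.85 CPM per kb, Cxcl16 with 19.5 ± 8.79, Cxcl14 with 16.2 ± 4.44, Cxcl12 with 14.8 ± 6.15 and Ccl27a with 2.76 ± 1.38. By this measure Cxcl1 ranked 66 among the 18435 genes tested, and Ccl27a ranked 9970. The range of Cxcl1 lay wholly above that of Ccl7, and Cxcl12 lay wholly above Ccl27a. The ranges of all other neighbours in the order from Ccl7 to Cxcl12 overlapped. Of these, Ccl2 exceeded Ccl11 in 9 of 9 libraries and Cx3cl1 exceeded Cxcl16 in 9 of 9, while Cxcl16 exceeded Cxcl14 in only 5 of 9.

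**Figure D1:**
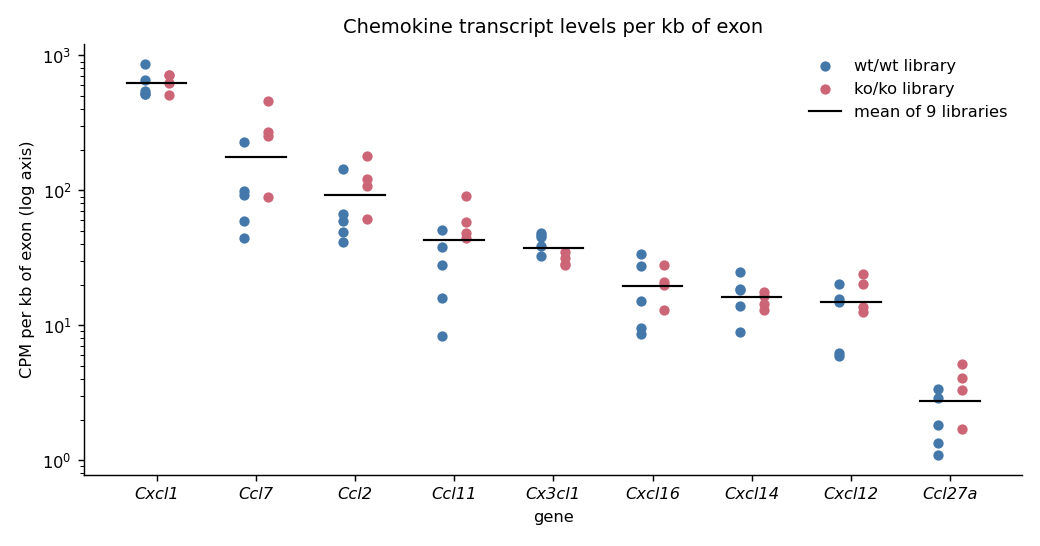
Level of each detected chemokine gene as CPM per kb of exon (vertical log axis), with a point for each of the 5 wt/wt and 4 ko/ko libraries and a line at the mean of the 9. Cxcl1 has the highest mean, 630 CPM per kb, and Ccl27a the lowest, 2.76 CPM per kb.

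None of the 9 tested genes differed between genotypes after adjustment over all genes in edgeR's quasi-likelihood test (0 of 9, adjusted p from 0.217 to 0.922). Over all genes that test called 0.00542%, which is 1 of 18435. At an unadjusted p under 0.05, 2 of the 9 were higher in ko/ko (Ccl7 and Ccl11), against 8.86% of all genes, and 1 was lower (Cx3cl1), against 6.42%. DESeq2 called 0 of the 9 and 3.03% of its 22415 genes, and limma voom with quality weights called 0 of the 9 and 9.77% of all genes. The values of ko/ko and wt/wt libraries overlapped for 9 of the 9, whereas the genotypes did not overlap for 6.25% of all genes. Log2 fold changes, given throughout as ko/ko over wt/wt, were positive for 7 of the 9 (47.4% of all genes), with a median of 0.49 against -0.03 over all genes. With 9 genes these counts are small, and they are given as a description.

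The monocyte and eosinophil attractants Ccl7 and Ccl11 on chromosome 11 had the largest positive estimates, and their neighbour Ccl2 came after Ccl27a. Ccl2 encodes the main monocyte attractant MCP-1, Ccl7 the related MCP-3, and Ccl11 eotaxin, which draws eosinophils through the receptor CCR3. In mm10 the genes lie in a row on the plus strand. Ccl2 (ENSMUSG00000035385) spans chr11:82035571-82037453, Ccl7 (ENSMUSG00000035373) spans chr11:82045712-82047525, and Ccl11 (ENSMUSG00000020676) spans chr11:82057823-82062955. Between them lie 8258 and 10297 bases. All 3 are protein-coding, and none shares a stretch of 50 transcript bases with another annotated gene.

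Ccl7 measured 47.6, 35.2, 184, 74.3 and 79.7 CPM in wt/wt replicates 1 to 5 and 216, 367, 71.4 and 201 CPM in ko/ko replicates 1 to 4. Ko/ko replicates 1, 2 and 4 lay above every wt/wt library, while ko/ko replicate 3 lay among them and wt/wt replicate 3 stood highest in its group. The wt/wt mean was 84.1 ± 58.6 CPM (SD, n = 5) and the ko/ko mean 214 ± 121 CPM (SD, n = 4). The log2 fold change of 1.35 (SE 0.50) did not pass edgeR's test (unadjusted p = 0.0200, adjusted p = 0.248). DESeq2 gave an adjusted p of 0.0950.

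Ccl11 measured 17.3, 9.08, 55.2, 41.2 and 30.4 CPM in wt/wt and 63.0, 97.7, 48.2 and 52.2 CPM in ko/ko libraries. Wt/wt replicates 1 and 2 were the lowest of the 9, and only wt/wt replicate 3 reached into the ko/ko range. The wt/wt mean was 30.6 ± 18.4 CPM (SD, n = 5) and the ko/ko mean 65.3 ± 22.5 CPM (SD, n = 4). EdgeR gave a log2 fold change of 1.09 (SE 0.43, unadjusted p = 0.0266, adjusted p = 0.269).

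Ccl2 measured 47.2, 56.0, 164, 76.6 and 67.5 CPM in wt/wt and 123, 203, 70.1 and 138 CPM in ko/ko libraries. As for Ccl7, replicate 3 was the highest in wt/wt and the lowest in ko/ko. The summed fibroblast markers were also highest in replicate 3 within wt/wt (33253 CPM) and in replicate 2 within ko/ko (34022 CPM). Their lowest ko/ko sum, however, was in replicate 1 (17989 CPM). The part of fibroblasts in the Ccl2, Ccl7 and Ccl11 values was not tested. On average Ccl2 lay at 82.2 ± 46.9 CPM in wt/wt (SD, n = 5) and, in ko/ko, at 134 ± 54.8 CPM (SD, n = 4), and edgeR estimated a log2 fold change of 0.70 (SE 0.37, adjusted p = 0.401). Without wt/wt replicates 1 and 2 the log2 fold change was 0.38 for Ccl2, 0.93 for Ccl7 and 0.63 for Ccl11.

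The summed level of 12 myeloid markers lay above every wt/wt library in 3 of the 4 ko/ko libraries. Cd74 made 95.4, 90.7 and 31.7 CPM of that sum in ko/ko replicates 1 to 3, against 0.817 to 11.9 CPM in wt/wt. Single markers could overlap between genotypes. Lyz2 lay at 14.1 to 81.2 CPM in wt/wt and 31.6 to 107 CPM in ko/ko, and Csf1r at 1.15 to 8.24 and 3.44 to 10.5 CPM. All 12 myeloid markers had a higher mean in ko/ko, and their summed level was 63.8, 18.4, 89.0, 84.9 and 51.8 CPM in wt/wt and 216, 244, 115 and 38.6 CPM in ko/ko libraries. Ptprc, which encodes CD45, lay at 0.0508 to 0.864 CPM in wt/wt and 0.910 to 7.17 CPM in ko/ko, and the Langerhans cell marker Cd207 was at 0 in 4 libraries. In ko/ko replicate 4, where Ccl7 was at 201 CPM, Lyz2 made 31.6 of the 38.6 CPM of the myeloid sum. In that library Ptprc (0.910 CPM) lay above every wt/wt library and Cd74 (0.607 CPM) lay below every one. The part of myeloid cells in the chemokine values was not tested. In these bulk libraries a change in the number of cells of a type and a change in RNA per cell cannot be told apart.

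**Figure D2:**
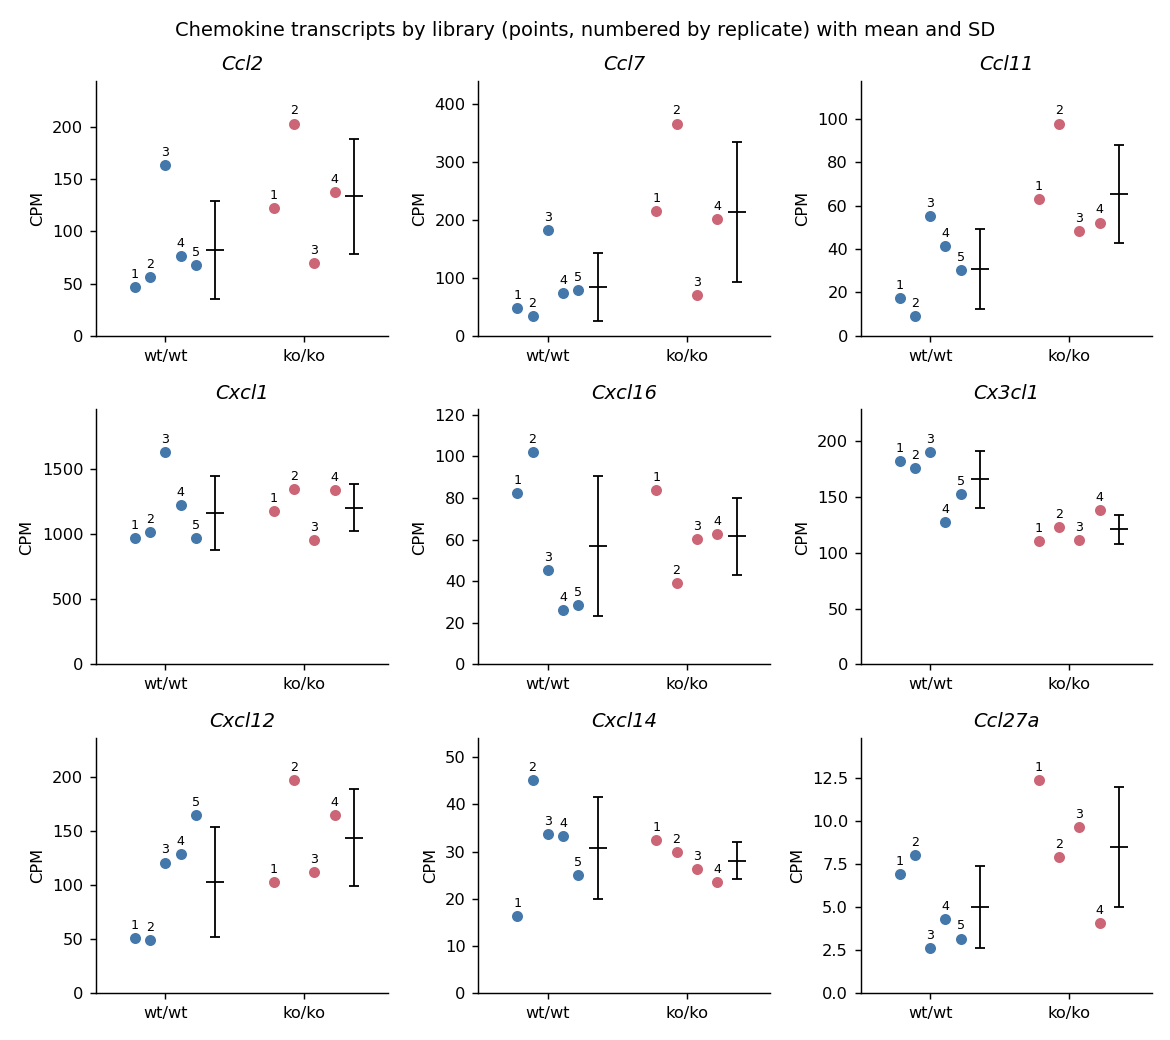
CPM of the 9 detected chemokine genes by genotype, with a point for each library numbered by replicate and a bar for the mean ± SD, each panel with its own axis from 0. The values of the genotypes overlap in all 9 panels, and ko/ko replicate 2 has the highest Ccl2, Ccl7 and Ccl11.

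Cxcl1, a neutrophil attractant that acts through CXCR2 and a classic target of NF-kB, had the smallest estimated difference of the 9. The gene (ENSMUSG00000029380) is protein-coding and spans chr5:90891241-90893115 on the plus strand. It measured 969, 1019, 1631, 1224 and 967 CPM in wt/wt and 1180.3, 1345, 956 and 1336 CPM in ko/ko libraries. Wt/wt replicate 3 was the highest of the 9 and ko/ko replicate 3 the lowest. The wt/wt mean was 1162 ± 283 CPM (SD, n = 5) and the ko/ko mean 1204 ± 182 CPM (SD, n = 4). This is a log2 fold change of 0.05 (SE 0.20, adjusted p = 0.922 in edgeR). The sign was not stable: it was -0.082 without wt/wt replicates 1 and 2, and 4 of the 9 fits without 1 library also gave values under 0 (lowest -0.0080).

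The promoter window of Cxcl1 is shown because this was the most abundant member and a known NF-kB target. RefSeq promoter windows, from 250 bases before to 50 after a gene's start (GRCm38.p6), were found for 6 of the 10 genes. Ccl2, Ccl7, Ccl11 and Cxcl16 had no entry. Distances are counted from the RefSeq start, which for Cxcl1 lies 4 bases from the start in the count table. The Cxcl1 window is chr5:90890995-90891294, plus strand, with the matches to the 10-letter NF-kB consensus in capitals.
Cxcl1 promoter: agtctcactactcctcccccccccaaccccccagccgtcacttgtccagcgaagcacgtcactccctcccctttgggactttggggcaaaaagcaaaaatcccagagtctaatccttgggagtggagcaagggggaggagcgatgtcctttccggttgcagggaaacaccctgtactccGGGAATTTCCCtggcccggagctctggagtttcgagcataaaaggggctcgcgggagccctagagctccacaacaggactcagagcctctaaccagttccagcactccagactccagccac
The capitals hold 2 overlapping matches, 1 on each strand, GGGAATTTCC starting 71 bases before the start and GGAATTTCCC starting 70 bases before it. At least 1 such match on either strand was present in 8.46% of 32851 RefSeq windows of the same length. The letters TATAAA and GGGCGG were absent from both strands of this window.

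Cx3cl1 and Cxcl16 encode the chemokines of the set that are made as membrane proteins. Cx3cl1 encodes fractalkine, which stands on the cell surface on a mucin stalk, holds cells that carry CX3CR1 and is released by the proteases ADAM10 and ADAM17. It measured 183, 176, 190.4, 127 and 153 CPM in wt/wt and 111, 123, 111 and 138 CPM in ko/ko libraries. Only wt/wt replicate 4 reached into the ko/ko range. The wt/wt mean was 166 ± 25.7 CPM (SD, n = 5) and the ko/ko mean 121 ± 12.9 CPM (SD, n = 4). In edgeR's test the log2 fold change was -0.46 (SE 0.15), with an unadjusted p of 0.0122 and an adjusted p of 0.217. Without wt/wt replicates 1 and 2 it was -0.37. Cx3cl1 (ENSMUSG00000031778) is protein-coding and spans chr8:94772009-94782427 on the plus strand.

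The Cx3cl1 window, chr8:94771930-94772229 on the plus strand, is shown as the only member window with a TATAAA match. Its RefSeq start, at base 94772180, lies 171 bases downstream of the start in the count table. Capitals mark GGGCGG, starting 27 bases before the start, and TATAAA, starting 6 bases before it.
Cx3cl1 promoter: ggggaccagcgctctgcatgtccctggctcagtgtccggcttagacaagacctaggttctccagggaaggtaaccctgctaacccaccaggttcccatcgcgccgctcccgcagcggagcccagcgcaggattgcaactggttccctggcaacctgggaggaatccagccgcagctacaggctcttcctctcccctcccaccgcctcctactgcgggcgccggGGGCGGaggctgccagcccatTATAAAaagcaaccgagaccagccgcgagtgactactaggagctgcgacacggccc
On either strand, TATAAA was present in 13.6% and GGGCGG in 35.7% of the 32851 windows. No match to the NF-kB consensus was found in this window.

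Cxcl16, the ligand of CXCR6, measured 82.5, 102, 45.6, 26.1 and 28.7 CPM in wt/wt and 84.0, 39.1, 60.1 and 62.9 CPM in ko/ko libraries. Wt/wt replicates 1 and 2 lay far above the other wt/wt libraries, the reverse of their place for Ccl7 and Ccl11. Group means were 57.0 ± 33.8 CPM for wt/wt (SD, n = 5) and, for ko/ko, 61.5 ± 18.4 CPM (SD, n = 4). With all libraries the log2 fold change was 0.11 (SE 0.39, edgeR adjusted p = 0.917), and it was 0.88 (edgeR adjusted p = 0.0716) without these 2. Cxcl16 (ENSMUSG00000018920, chr11:70453983-70459984, minus strand, protein-coding) shares 18.3% of its exon bases with Zmynd15 on the opposite strand. Zmynd15 had 74 counts in wt/wt and 86 in ko/ko libraries in total, against 513 to 2126 Cxcl16 counts per library.

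The homeostatic chemokines Cxcl12 and Cxcl14 did not differ past the threshold. Cxcl12 encodes SDF-1, the stromal ligand of CXCR4. It measured 51.1, 48.7, 121, 129 and 165 CPM in wt/wt and 103, 197, 112 and 165 CPM in ko/ko libraries. Wt/wt replicates 1 and 2 were the lowest by far, and the remaining libraries of both genotypes shared 1 range. Group means were 103 ± 51.1 CPM for wt/wt (SD, n = 5) and, for ko/ko, 144 ± 44.6 CPM (SD, n = 4). Over all 9 libraries the log2 fold change was 0.49 (SE 0.36, edgeR adjusted p = 0.542), and it was 0.06 without those 2 libraries. They were picked in part for their low Cxcl12, so the second value is not independent of this gene. The same 2 libraries had the lowest summed fibroblast markers of the wt/wt group; the part of fibroblasts in the Cxcl12 values was not tested. With 1 surrogate variable in the fit, the log2 fold change was 0.95 and Cxcl12 was called higher (edgeR adjusted p = 0.044).

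Cxcl12 (ENSMUSG00000061353, protein-coding) spans chr6:117168535-117181367 on the plus strand. Its window, chr6:117168285-117168584, is shown for its GGGCGG content, the highest among the member windows, with the matches on either strand in capitals.
Cxcl12 promoter: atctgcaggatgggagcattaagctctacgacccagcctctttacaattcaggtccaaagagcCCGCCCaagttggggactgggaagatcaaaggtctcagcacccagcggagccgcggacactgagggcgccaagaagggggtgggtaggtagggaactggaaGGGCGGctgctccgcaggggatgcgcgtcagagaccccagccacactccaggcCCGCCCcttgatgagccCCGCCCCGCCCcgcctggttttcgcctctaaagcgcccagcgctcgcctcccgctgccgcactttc
The 5 matches start 187, 86, 33, 16 and 11 bases before the start, and the last 2 share a base. TATAAA and the NF-kB consensus were not found in this window.

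Cxcl14, a constitutively made epithelial chemokine, measured 16.3, 45.1, 33.7, 33.4 and 25.1 CPM in wt/wt and 32.4, 29.8, 26.3 and 23.6 CPM in ko/ko libraries. The ko/ko values lay inside the wt/wt range, whose ends were wt/wt replicates 1 and 2. Group means were 30.7 ± 10.8 CPM for wt/wt (SD, n = 5) and, for ko/ko, 28.04 ± 3.89 CPM (SD, n = 4). For Cxcl14 the log2 fold change was -0.13 (SE 0.25, edgeR adjusted p = 0.835), and it was 0.051 without wt/wt replicate 2. Cxcl14 (ENSMUSG00000021508) is protein-coding and spans chr13:56288647-56296551 on the minus strand.

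Ccl27a, the keratinocyte chemokine CTACK that draws skin-homing T cells through CCR10, was low in every library. It measured 6.92, 8.02, 2.59, 4.32 and 3.17 CPM in wt/wt and 12.4, 7.92, 9.65 and 4.05 CPM in ko/ko libraries. Wt/wt replicates 1 and 2 and ko/ko replicates 1 to 3 were high, while ko/ko replicate 4 lay with the lower wt/wt libraries. On average Ccl27a lay at 5.004 ± 2.37 CPM in wt/wt (SD, n = 5) and, in ko/ko, at 8.50 ± 3.49 CPM (SD, n = 4). EdgeR's log2 fold change was 0.76 (SE 0.40, adjusted p = 0.387). It was 1.34 (edgeR adjusted p = 0.0554) without wt/wt replicates 1 and 2. With ko/ko replicate 4 as the only ko/ko library it was -0.29. The summed level of 8 basal keratinocyte markers was 1873, 3106, 1475, 1548 and 1693 CPM in wt/wt and 2529, 1697, 2662 and 1963 CPM in ko/ko libraries. The part of keratinocytes in the Ccl27a values was not tested.

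Ccl27a (ENSMUSG00000073888, chr4:41769467-41774247, minus strand, protein-coding) lies in a region of chromosome 4 with many near-identical gene copies. Of its 50-base transcript windows, 44.98% also occur in other annotated genes, among them Gm20878 (28.4%), Gm13306, Ccl27b and Gm21586. Counts of Gm20878 and Gm21586 were not examined. Over the 9 libraries Ccl27b had 0 counts and Gm13306 had 34, against 1185 for Ccl27a. The sources used here do not say how reads that fit several genes were counted, which leaves the Ccl27a values uncertain. It also shares 8 exon bases with Il11ra1 on the opposite strand.

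Ccl19, a homeostatic ligand of CCR7 that guides dendritic cells and T cells, had 0 counts in all 9 libraries. A count of 0 allows a level of up to 3 counts, or 0.129 to 0.192 CPM in these libraries, for counting error only. Ccl19 (ENSMUSG00000071005, chr4:42754525-42756577, minus strand, protein-coding) lies in the same region, and 52.0% of its 50-base windows occur in copies. The copies Gm12407, Ccl19-ps3, Gm2564 and Ccl19-ps1 had 23, 14, 7 and 0 counts over the 9 libraries, so the count of 0 for Ccl19 covers only reads assigned to that gene.

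Ccl2, Ccl7 and Ccl11 varied together between libraries, also with the genotype means removed. Correlations were computed on log2 CPM over the 9 libraries for the 36 pairs of detected members, with exact two-sided permutation p-values adjusted over the 36. Ccl2 and Ccl7 had Pearson's r = 0.961 (exact p = 0.000245, adjusted p = 0.00441) and Spearman's rho = 0.867 (exact p = 0.00451, adjusted p = 0.0541). Without the 2 libraries farthest from the median of Ccl2, r was 0.953. With genotype means removed it was 0.951. The libraries within a genotype, 5 and 4, are too few for a correlation of their own.

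Ccl7 and Ccl11 had r = 0.898 (exact permutation p = 0.000223, adjusted p = 0.00441) and rho = 0.917 (exact p = 0.00131, adjusted p = 0.0236). Leaving out the 2 farthest libraries gave r = 0.843, and removing genotype means gave 0.826. Ccl2 and Ccl11 had r = 0.833 (exact permutation p = 0.00260, adjusted p = 0.0312) and rho = 0.917 (exact p = 0.00131, adjusted p = 0.0236), with 0.777 and 0.756 in those checks. These 3 genes are neighbours with no shared transcript sequence of 50 bases, so their counts are separate measurements of the same libraries.

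**Figure D3:**
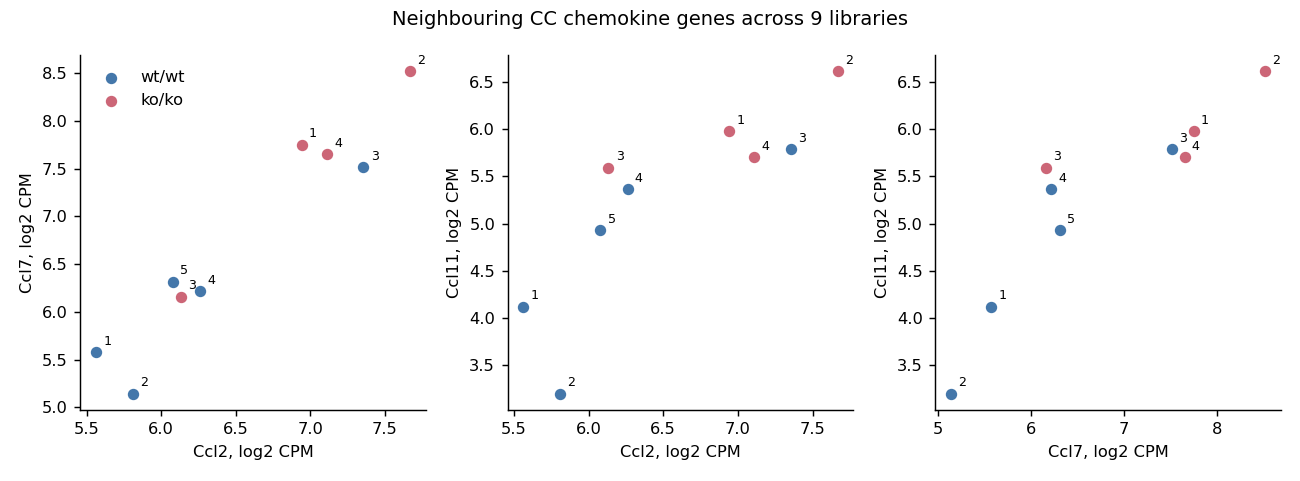
Log2 CPM of Ccl2, Ccl7 and Ccl11 plotted against each other, with a point for each of the 9 libraries, coloured by genotype and numbered by replicate. Libraries of both genotypes lie along 1 trend in each panel, with r = 0.961 for Ccl2 and Ccl7, 0.833 for Ccl2 and Ccl11 and 0.898 for Ccl7 and Ccl11.

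Cxcl1 on chromosome 5 varied with Ccl2 as well, at r = 0.858 (exact permutation p = 0.00506, adjusted p = 0.0456), though rho = 0.817 did not pass (exact p = 0.0108, adjusted p = 0.0969). The value was 0.819 without the 2 farthest libraries and 0.939 with genotype means removed. The spread of Cxcl1 across libraries was small, with a highest value 1.71 times the lowest, against 10.4 times for Ccl7, 10.8 for Ccl11 and 4.31 for Ccl2.

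These 4 pairs were the ones that passed by Pearson's r, and 2 of them passed by rho. Cxcl12 and Ccl11 had r = 0.832 (exact permutation p = 0.00906, adjusted p = 0.0653) and rho = 0.500 (exact p = 0.178, adjusted p = 0.492), and r was 0.189 without wt/wt replicates 1 and 2. Those 2 libraries were the lowest of the 9 for both genes, and were picked in part for low Cxcl12. Leaving them out therefore narrows both ranges and does not test the relation. Cxcl12 and Cxcl16 ran in opposite directions, with r = -0.722 (exact permutation p = 0.0275, adjusted p = 0.124) and rho = -0.783 (exact p = 0.0172, adjusted p = 0.124). That r was -0.453 without the same 2 libraries and -0.929 with genotype means removed, where that of Cxcl12 and Ccl11 was 0.798. The libraries share their scaling and amplification, which were not separated from these relations.

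**Figure D4:**
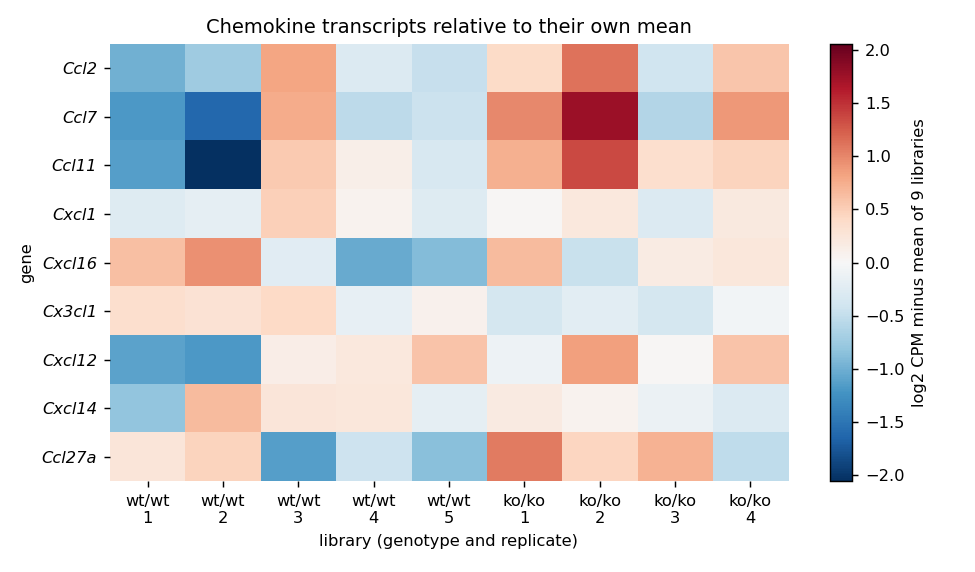
Log2 CPM of the 9 detected chemokine genes minus each gene's mean over the 9 libraries, with genes in rows, libraries in columns and colour for the difference. Ccl2, Ccl7 and Ccl11 are low in wt/wt replicates 1 and 2 and high in ko/ko replicate 2, while Cxcl16 is high in wt/wt replicates 1 and 2.

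The genes most like the 3 members of highest mean CPM were sought among the other 18434 genes tested, by Pearson's r of log2 CPM over the 9 libraries and as a description. For Ccl7 they were Has1, a hyaluronan synthase (r = 0.975, mean 273 CPM), and Ifi204, an interferon-inducible gene (r = 0.971, mean 9.21 CPM). For Cxcl1 they were the predicted genes Gm5479 (r = 0.947, mean 0.670 CPM) and Gm12052 (r = 0.921, mean 4.28 CPM). For Cx3cl1 they were Sstr2, a somatostatin receptor (r = 0.946, mean 1.25 CPM), and Gm14828 (r = 0.939, mean 1.28 CPM). Several of these genes had low counts.

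Other chemokine ligands were mostly scarce. Of 30 found in the table, 16 passed the filter and edgeR called 0 of the 16 (adjusted p from 0.185 to 0.990), with 10 positive and 6 negative log2 fold changes and a median of 0.18. At an unadjusted p under 0.05, 3 were higher (Ccl6, Ccl24 and Pf4, genes of myeloid cells or platelets), against 8.86% of all genes. At that level 2 were lower (Ccl21a and Ccl21b), against 6.42% of all genes. Ccl21a, the lymphatic endothelial ligand of CCR7, was the most abundant at 259, 199, 52.1, 68.7 and 65.7 CPM in wt/wt and 45.6, 51.1, 25.4 and 46.8 CPM in ko/ko libraries. Every ko/ko value lay below every wt/wt value, and wt/wt replicates 1 and 2 stood far above the rest. Its log2 fold change was -1.61 (SE 0.48, edgeR adjusted p = 0.185, DESeq2 adjusted p = 0.0202, limma voom adjusted p = 0.102). It was -0.56 (SE 0.23, edgeR adjusted p = 0.138) without these 2 libraries.

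Ccl21a shares 71.6% of its 50-base windows with the copies Gm21541, Gm13304, Ccl21b and Gm10591, so its counts are uncertain. The summed level of 5 other lymphatic endothelial markers was 343 to 599 CPM in wt/wt and 184 to 263 CPM in ko/ko libraries, and 0 of the 5 had a higher mean in ko/ko. The part of lymphatic cells in the Ccl21a values was not tested.

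The neutrophil attractant Cxcl2, a close relative of Cxcl1, had a wt/wt mean of 13.5 ± 4.25 CPM (SD, n = 5) and a ko/ko mean of 16.5 ± 3.65 CPM (SD, n = 4), with an estimate of 0.29 (SE 0.24) on the log2 scale. The interferon-induced Cxcl10 averaged 14.0 ± 4.39 and 14.1 ± 2.27 CPM. Ccl8, a further member of the chromosome 11 cluster, had an estimate of 1.21 (SE 0.61) on that scale. It ran from 1.01 to 13.8 CPM in wt/wt and from 5.86 to 18.2 CPM in ko/ko libraries. Ccl20, which attracts Langerhans cell precursors through CCR6, had 0.30 (SE 0.53) with all libraries and 1.36 (SE 0.39, edgeR adjusted p = 0.0568) without wt/wt replicates 1 and 2. Ccl25 had 0.16 (SE 0.25). Ccl3, a macrophage chemokine below the filter, had 2 counts in all wt/wt libraries together and 50 in all ko/ko libraries. Ko/ko replicates 1 to 4 had 26, 17, 7 and 0 of them. DESeq2 called Ccl3 higher (adjusted p = 0.0458).

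The signalling receptors of the 10 chemokines were scarce. Ccr2, whose product binds Ccl2 and Ccl7, had 7 counts summed over wt/wt libraries and 107 summed over ko/ko libraries. Ccr3 had 8 and 12 counts, Cxcr2 had 21 and 9, Cxcr6 had 23 and 54, Ccr10 had 25 and 7, Cx3cr1 had 39 and 26, and Cxcr4 had 121 and 114. Ccr7 had 8 and 95 counts and Ccr1 had 2 and 33. Of 19 receptor genes apart from Ackr1 to Ackr4, 5 passed the filter. EdgeR called 0 of the 5 (median log2 fold change 0.28, the value of Ccrl2, 5 positive). DESeq2, which tests genes below that filter, called Ccr1 (adjusted p = 0.0419), Ccr2 (0.00830) and Ccr7 (0.0133) higher in ko/ko, and 3.03% of all its genes. Ko/ko replicates 1 to 4 had 5, 18, 7 and 3 counts for Ccr1, 13, 77, 13 and 4 for Ccr2, and 10, 54, 27 and 4 for Ccr7. Replicate 2 was thus the highest each time. No wt/wt library had more than 1, 4 and 4 counts of these genes.

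Atypical receptors were better represented, and the genotypes did not overlap for 1 of the 4 listed, Ackr1 (6.25% of all genes). This receptor, which binds many inflammatory chemokines on venular endothelium, measured 6.05, 6.97, 15.4, 13.4 and 10.7 CPM in wt/wt and 41.4, 40.2, 25.4 and 20.9 CPM in ko/ko libraries. Every ko/ko library lay above every wt/wt library. The wt/wt mean was 10.5 ± 4.04 CPM (SD, n = 5) and the ko/ko mean 32.0 ± 10.4 CPM (SD, n = 4). The log2 fold change of 1.605 (SE 0.31) did not pass edgeR's test (unadjusted p = 0.00026, adjusted p = 0.127). It was called by DESeq2 (adjusted p = 0.000476) and limma voom (adjusted p = 0.0178). Without wt/wt replicates 1 and 2 edgeR called it too, at 1.28 (SE 0.27, adjusted p = 0.0277), as it did 1635 of 18665 genes. The annotation gives Ackr1 and Cadm3 25.7% of the Ackr1 exon bases in common on the same strand, and Cadm3 had 1842 and 2063 counts over the groups, against 1076 and 2559 for Ackr1. The summed level of 7 blood endothelial markers was 156 to 264 CPM in wt/wt and 154 to 264 CPM in ko/ko libraries. Among them Vwf lay at 3.27 to 10.4 CPM in wt/wt and 8.39 to 16.6 CPM in ko/ko, and Tie1 at 18.9 to 36.2 and 13.1 to 20.3 CPM. The part of endothelial cells in the Ackr1 values was not tested.

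Ackr2, a scavenger of inflammatory CC chemokines, had an estimate of -0.68 (SE 0.32). It measured 18.6 to 35.1 CPM in wt/wt and 7.05 to 23.9 CPM in ko/ko libraries. Ackr3, which scavenges Cxcl12, was the most abundant receptor, with a wt/wt mean of 198 ± 52.4 CPM (SD, n = 5), a ko/ko mean of 157 ± 24.0 CPM (SD, n = 4) and an estimate of -0.34 (SE 0.21). Ackr4, a scavenger of the CCR7 ligands, had -0.11 (SE 0.46). None of these 3 passed edgeR's test (adjusted p = 0.338, 0.465 and 0.932). Without wt/wt replicates 1 and 2 Ackr3 was called lower, at -0.58 (SE 0.15, edgeR adjusted p = 0.0446). In that setting 1635 of 18665 genes were called.

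**Figure D5:**
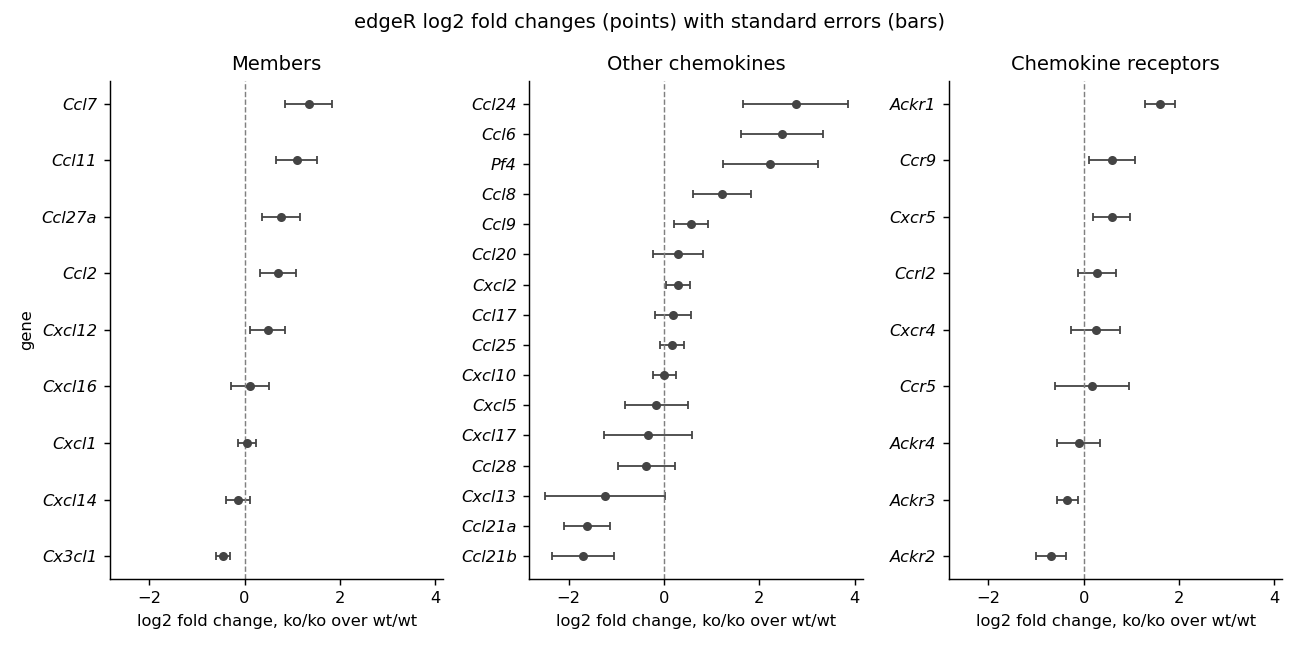
Log2 fold change of ko/ko over wt/wt by edgeR (points) with SE (bars) for the 9 tested members, 16 other chemokines and 9 receptors. The member values run from -0.46 (Cx3cl1) to 1.35 (Ccl7), and Ackr1 has 1.605.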

How the data were processed

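The authors deposited raw counts per gene, 1 column for each of the 9 libraries, beside an exon length. The submitters' processing notes list featureCounts 1.6.2, GSNAP and mm10, per the labels, and the table's name gives Ensembl release 87. Per the labels' protocols, polyadenylated RNA was amplified by a SMART method and cut with a transposase. Handling of strand, multi-mapped and duplicate reads is not given in the sources used here. Of 49763 rows, 92 spike-in rows were left out. Symbols came from GENCODE M21 by identifier (49326 rows matched), and positions are those of the table.

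Genotypes were compared by edgeR 4.0.16 (R 4.3.3) after filterByExpr, which kept 18435 genes and removed 31236, with TMM factors, glmQLFit with robust=TRUE, two-sided quasi-likelihood F tests and Benjamini-Hochberg adjustment over all genes, threshold 0.05. Standard errors (SE) were computed by dividing the size of each log2 fold change by the square root of its F value. CPM use TMM-adjusted library sizes, and log2 CPM a prior count of 2. The limit for a count of 0 uses library totals. DESeq2 1.42.0, limma 3.58.1 (voom) and sva 3.50.0 served for alternatives, along with other factors and filters and each library left out. The settings that leave out several libraries were added after seeing the data. Wt/wt replicates 1 and 2 were picked for their low Cxcl12 and high Ccl21a levels, so values without them are not independent of those genes. They were also the extreme wt/wt libraries for others, such as Nfkb1 (highest) and Ackr1 and Ackr3 (lowest). For such genes values without them are not an independent check either.

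Replicate numbers follow accession order. Each title holds its own identifier, but no label names separate animals, so p-values measure the spread between these samples. The 10 members and the gene lists were chosen with earlier results of these data known. The text names all 10 members, up to 6 genes of each list by mean CPM, the 2 genes most like each of the 3 members of highest mean CPM, and overlapping or copied genes. Ccl3, Ccl6, Ccl24, Pf4, Il1b, Il33, Flg and the receptors below the filter were named after their values were seen or for background. Correlations were planned for all pairs of the 10, and Ccl19, at 0 throughout, left 36 pairs.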

Additional observations from a re-analysis of the deposited data

Results flagged for a closer look

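Each tested gene of the chemokine and receptor lists was searched within each genotype for 1 library far from the rest. Of 68 such searches 5 gave a hit, and chance gives about 1 in 20, or 3.4 here. None was a value of the 10 chemokines. Each is a ko/ko library far from the other 3. Ko/ko replicate 1 had 3 of them: Ccl20 at 3.75 log2 CPM (the others at 2.81 to 2.93), Ccl28 at -2.68 (-0.06 to 0.15), and Ackr2 at 2.84 (4.31 to 4.58). In ko/ko replicate 2, Ccl9 stood at 2.65 log2 CPM while the others had 1.83 to 1.90. In ko/ko replicate 3, Ccl21a stood at 4.67 log2 CPM while the others had 5.51 to 5.68. The rows of synthetic spike-in RNA, which entered no test, summed to 6 counts for wt/wt replicate 1 and to 1 to 3 counts elsewhere. The limit set by a count of 0 is 3 counts.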

How the results depend on the processing

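No paired analysis was possible because the replicate numbers only name the libraries in accession order. Over 21 other settings and 9 members, 176 of 189 log2 fold changes kept their direction and their side of the threshold, 1 newly passed and 12 changed sign. With 1 surrogate variable 1 member was called, Cxcl12. The sign of Cxcl1 turned to -0.098 with voom and -0.082 without wt/wt replicates 1 and 2. Leaving out 1 library gave -0.0080 to 0.21 for Cxcl1, under 0 without wt/wt replicate 1 or 5 or ko/ko replicate 2 or 4, and -0.077 to 0.43 for Cxcl16, under 0 without wt/wt replicate 4 or 5 or ko/ko replicate 1. Cxcl16 turned to -0.11 with the surrogate variable. Leaving out 1 library gave -0.29 to 0.051 for Cxcl14, above 0 without wt/wt replicate 2, and Ccl27a turned to -0.29 without ko/ko replicates 1 to 3, where ko/ko replicate 4 alone is assumed to vary like wt/wt. The sign of Tnf turned from -0.36 to 0.70 without wt/wt replicates 1 and 2. The log2 fold change ranged from 0.66 to 1.85 for Ccl7, 0.63 to 1.54 for Ccl11, 0.29 to 1.11 for Ccl2 and -0.53 to -0.26 for Cx3cl1, none of them called (smallest edgeR, DESeq2 or voom adjusted p = 0.0930, 0.0668, 0.151 and 0.0963).

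Of the other chemokines edgeR called 0, DESeq2 2 (Ccl21a and Ccl3), voom 1 (Ccl6), the surrogate variable fit 1 (Ccl21a) and the fit without wt/wt replicates 1 and 2 also 1 (Ccl6). Of the receptors edgeR called 0, and 1 with no filter, voom or the surrogate variable (Ackr1), 4 with DESeq2 and 3 without wt/wt replicates 1 and 2 (Ackr1 and Ccr2 higher, Ackr3 lower). Over all genes edgeR called 1, with 4 when scaled by totals alone, 28 with no filter, 31 at a threshold of 0.1, 231 with the surrogate variable, 680 by DESeq2, 1802 by voom and 1635 without wt/wt replicates 1 and 2. Leaving out 1 library gave 0 to 12 calls (12 without ko/ko replicate 4), and leaving out ko/ko replicates 1 to 3 gave 0. By CPM with no length correction 4 of the 10 members kept their place in the order of levels, and 8 kept it within wt/wt or within ko/ko. Where no reason is named, the cause was not tested.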

Other observations

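Genes that induce chemokines or carry the NF-kB signal did not share a direction. Of 23 such genes, all tested, 10 had positive and 13 negative log2 fold changes (median -0.03), and edgeR called 0 of them. At an unadjusted p under 0.05, 3 were higher (8.86% of all genes) and 0 were lower (6.42% of all genes). Nfkbia, the feedback inhibitor of NF-kB, was the most abundant, with a wt/wt mean of 2192 ± 432 CPM (SD, n = 5) and a ko/ko mean of 2316 ± 288 CPM (SD, n = 4). Nfkbiz, a nuclear co-regulator, had a log2 fold change of -0.42 (SE 0.21). The subunit gene Rela had -0.32 (SE 0.15) and Tnfaip3, an NF-kB inhibitor, had -0.27 (SE 0.23). The other subunit Nfkb1 had 1.001 (SE 0.45, edgeR adjusted p = 0.323, DESeq2 adjusted p = 0.197, limma voom adjusted p = 0.0212). It measured 392, 302, 187, 82.8 and 69.1 CPM in wt/wt and 566, 316, 374 and 397 CPM in ko/ko libraries. Without wt/wt replicates 1 and 2, its 2 highest wt/wt libraries, the estimate was 1.87 (SE 0.35), and edgeR called it (adjusted p = 0.0217). In that setting edgeR called 1635 of 18665 genes.

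Il33, an alarmin of the interleukin-1 family, had a wt/wt mean of 14.5 ± 5.05 CPM (SD, n = 5) and a ko/ko mean of 27.1 ± 3.48 CPM (SD, n = 4). Its log2 fold change of 0.90 (SE 0.23) was not called by edgeR (adjusted p = 0.148) but was by DESeq2 (adjusted p = 0.0216). Il1b summed to 73 counts in wt/wt and 725 in ko/ko libraries, with 244, 332, 143 and 6 in ko/ko replicates 1 to 4. Ko/ko replicate 4 (0.303 CPM) lay inside the wt/wt range of 0 to 2.24 CPM. The log2 fold change of Il1b was 3.63 (SE 1.03, edgeR adjusted p = 0.174). With wt/wt replicates 1 and 2 left out it was 4.998 (SE 1.24) and called by edgeR (adjusted p = 0.0401), as were 1635 of 18665 genes. Of the proteases that release or trim chemokines, Adam10 and Adam17, which shed fractalkine, had 0.03 (SE 0.25) and -0.16 (SE 0.19). Mmp14, a membrane-bound matrix protease, had 0.49 (SE 0.20, edgeR adjusted p = 0.275), Mmp2 had -0.04 (SE 0.36) and Dpp4, which trims Cxcl12, had 0.53 (SE 0.61), or -0.05 without wt/wt replicates 1 and 2. EdgeR called 0 of these 5.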
